A study of Mus musculus with 6 samples.

Results

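The genes described here encode the proteins that bring secreted and membrane proteins into the endoplasmic reticulum (ER), fold them there and carry them on to the Golgi apparatus. They were taken by symbol: Hspa5, Hsp90b1, Calr, Canx, Rpn1 and Rpn2, the COPI coat genes Copa, Copb, Copg, Copz and Cope, and every gene whose symbol starts with Pdia, P4h, Kdelr, Edem, Ssr, Spcs, Stt3, Tmed or Sec and a digit. In the GENCODE annotation of GRCm38 this rule matched 80 protein-coding genes, of which 37 were among the 3162 genes in the deposited files. The other 43, including Canx and Rpn2, were not analysed here. By step, the 37 genes comprised 6 of ER entry, 10 of folding, 13 of vesicle coats and 5 of cargo receptors, together with the 3 Sec22 genes, which match by spelling.

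The tissue was epididymal white fat, a depot inside the abdomen beside the epididymis, from male wild-type C57BL/6J mice aged 16 weeks. A group of 3 mice was fed normally and a group of 3 was starved for 24 h, with no other treatment in either group. Bulk RNA sequencing gave an FPKM value (sequenced fragments scaled to transcript length and library size) for each gene in each mouse, so levels are per length and can be compared between genes. Replicate numbers only name the mice within a group. The comparison asked how a short fast alters transcription in this depot.

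Secreted proteins carry a signal peptide that directs them to the Sec61 channel in the ER membrane. There the signal peptide is cut off, N-glycans are added, and chaperones, lectins and disulfide isomerases fold the chain. Folded cargo leaves in COPII-coated vesicles, and COPI-coated vesicles return escaped ER proteins and receptors from the Golgi. Fat cells secrete large amounts of hormones, enzymes and matrix proteins, and fibroblasts, vessel cells and immune cells of the depot use the same machinery.

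The files hold few genes with little difference between the groups. Of the 3162 genes, 9 had a log2 ratio of group means between -0.2 and 0.4, so genes with small changes are scarce among those held. Among the 37 genes the ratio nearest to 0 was -0.25, that of Copa, and 3 of the genes that fell lay above -0.3. Whether a held gene is called, or has groups that do not overlap, may thus follow from how the genes were chosen. Of all tested genes, 90.5% were called in either direction by the test given below. Calls, adjusted p-values and counts of falls and rises among held genes are therefore not independent evidence of a change or of its direction. Sequencing depth is unknown, and summed FPKM over the held genes ran from 180058 to 209201.

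Defining markers of fat cells were present in every library: 5 of the 12 listed were held (Plin1, Aoc3, Lep, Slc2a4 and Retn), and all 5 fell. Their summed level was 5695 to 6809 FPKM in fed and 3138 to 3735 in fasted tissue. Retn was the largest part of it, at 3761 to 4786 FPKM fed and 2670 to 2895 fasted. The 5 held of 12 endothelial markers all rose, from 212 to 259 FPKM in sum to 353 to 501. Of 5 held among 12 fibroblast markers, 2 rose and 3 fell (sum 880 to 1169 FPKM fed, 1298 to 1924 fasted). The largest part of that sum was Dcn, at 391 to 627 FPKM fed and 831 to 1403 fasted. Ly6a also rose, and the 3 collagen genes Col1a1, Col1a2 and Col3a1 fell. The 1 held macrophage marker, Itgam, was 4.55 to 8.38 FPKM in fed and 2.12 to 3.86 in fasted tissue. The 1 held T cell marker, Cd3e, was 0.15 to 0.23 and 0.89 to 0.98 FPKM. Adam7, the 1 held marker of epididymal epithelium, was 0.02 to 2.05 and 0 to 0.03 FPKM, and no marker of mesothelium or mast cells was held. The part of these markers in the results below was not tested, and in bulk tissue fewer cells of a type and less RNA per cell cannot be told apart.

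All 37 genes were expressed above the minimum mean of 1 FPKM and were tested. With fasting 35 fell and 2 rose (limma on log2(FPKM + 1), Benjamini-Hochberg adjusted p of 0.00112 to 0.0471). Among all 2999 genes tested, 49.4% were called lower and 41.1% higher. Fed and fasted values did not overlap for any of the 37 genes, 35 lower and 2 higher, against 52.6% of tested genes not overlapping and lower and 40.8% not overlapping and higher. The genes that rose were Sec31b, which encodes an outer COPII coat subunit, and Tmed5, of the p24 family of cargo receptors. The median log2 fold change of the 37 genes was -0.42, and that of all tested genes was -0.34. The latter was taken over falls and rises together, so it is not the typical size of a fall among held genes.

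Mean FPKM in fed tissue ranged from 2.83 for Sec22c to 316 for Calr, the lectin chaperone calreticulin. Fasted means of the genes that fell were 43.8% to 84.0% of the fed means. In 4 of them the mean was at most 50% of the fed mean (Edem1, Hspa5, P4ha1 and Kdelr3), in 17 it was between 50% and 75%, and in 14 it was above that. The median coefficient of variation within a group was 7.65% in fed and 7.25% in fasted mice, against 13.8% and 14.0% over all tested genes. The median fed level was also higher, at 43.0 FPKM for the 37 genes and 16.3 FPKM for all tested genes. The part of level, or of how the held genes were chosen, in the smaller variation was not tested.

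**Figure D1:**
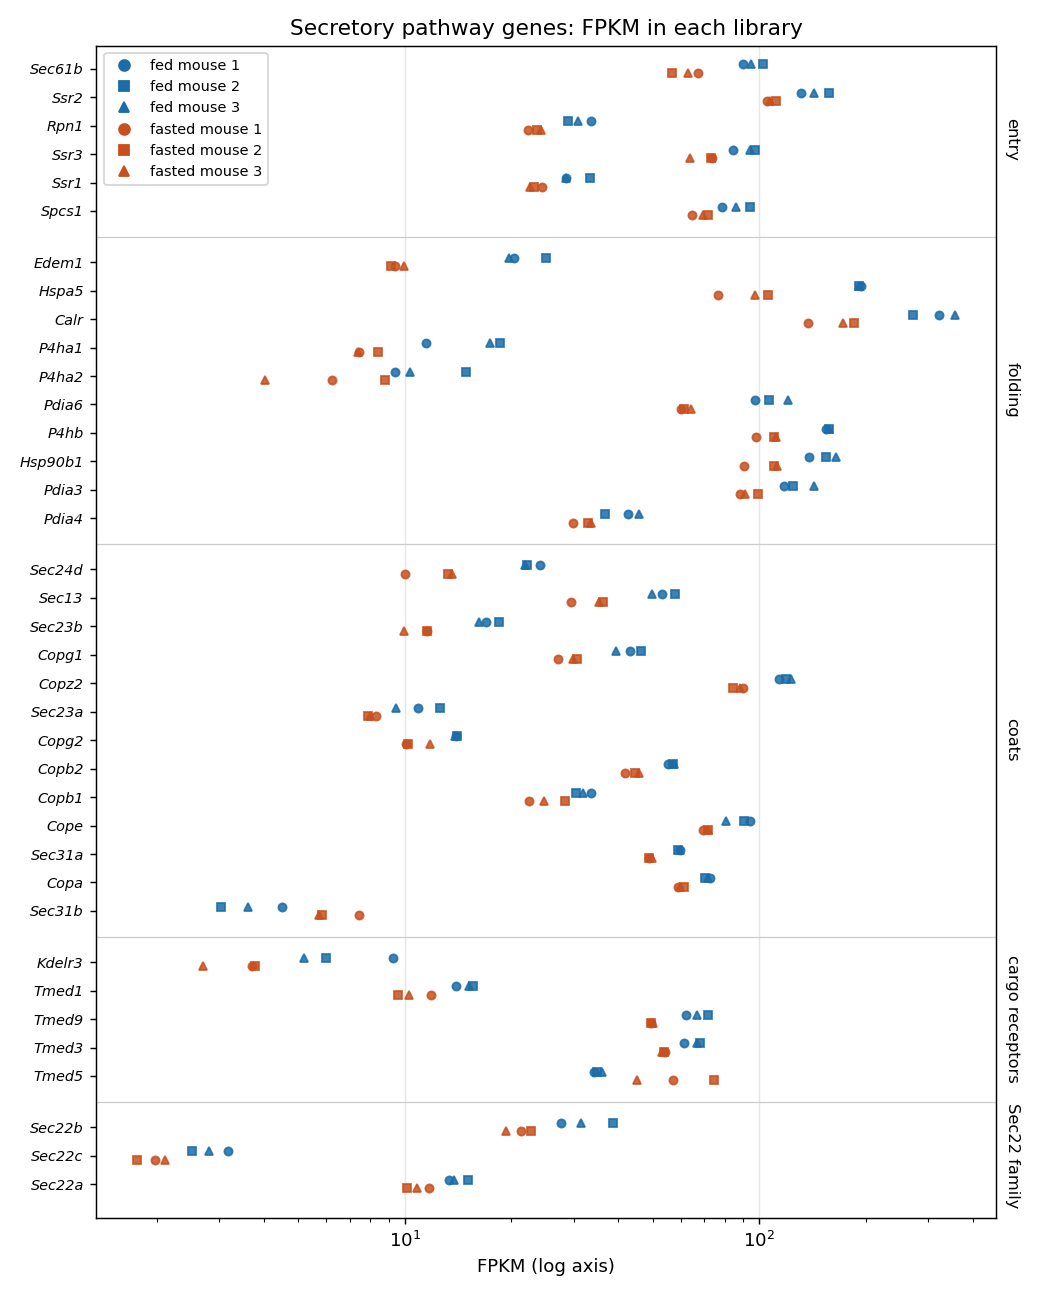
FPKM (log axis) of the 37 genes in each of the 6 libraries, by step, with blue symbols for the 3 fed and orange symbols for the 3 fasted mice and 1 symbol shape per mouse. The fasted values lie to the left of the fed values in 35 genes and to the right in Sec31b and Tmed5.

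How many of the small falls passed the test depended on how libraries were scaled. With median-ratio scaling, 13 of the 37 genes fell and 2 rose (background 26.2% lower and 41.3% higher). With quantile normalization, 17 fell and 2 rose (background 38.9% and 40.2%). Both scalings were computed from the held genes alone, among which genes with small changes are scarce. The median over all tested genes moved from -0.34 to -0.15 and -0.21, and that of the 37 genes moved from -0.42 to -0.23 and -0.27, so the gap between them was -0.07, -0.08 and -0.06. Median-ratio scaling multiplies each library by 1 factor, so it could hardly alter this gap. Without fasted replicate 2, 23 of the 37 genes fell, the lowest count when 1 library was left out. Over all genes tested in that fit 1040 of 2990 fell, also the lowest such count. No gene (0 of 37) changed sign under either of these scalings. In the remaining settings a sign could not change, because fed and fasted values of each gene did not overlap.

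The same 13 genes that fell under both scalings also fell when any 1 library was left out. They were Sec61b, Edem1, Hspa5, Calr, P4ha1, Pdia6, P4hb, Sec24d, Sec13, Sec23b, Copg1, Kdelr3 and Sec22b. Both rises, of Sec31b and Tmed5, held in all of these fits. Folding gave 6 of these 13 falls, coats 4, and entry, cargo receptors and the Sec22 family 1 each. The share of all tested genes called lower in every one of these fits was not computed, so the 13 have no background. When every annotated gene that was not tested was given the largest possible p, Edem1, Hspa5 and Pdia6 alone passed, where 6.4% of tested genes were called lower and 5.74% higher.

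**Figure D2:**
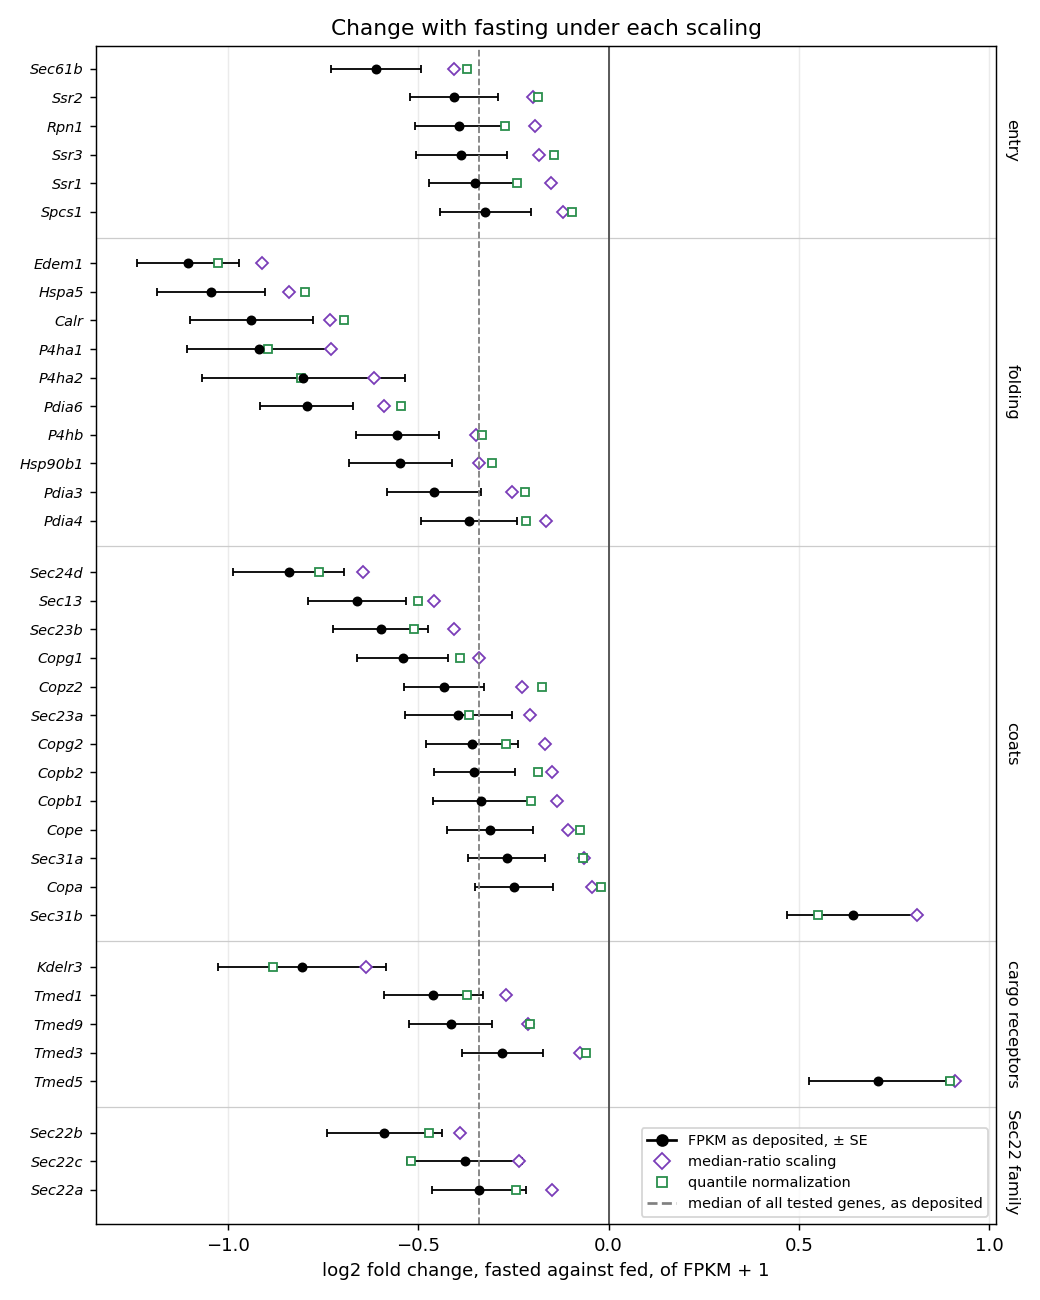
Log2 fold change of FPKM + 1, fasted against fed, for each gene, with black points and bars for values as deposited ± SE (n = 3 per group), purple diamonds for median-ratio scaling and green squares for quantile normalization. The dashed line marks the median of all tested genes at -0.34, and the points farthest to its left are those of the folding genes Edem1, Hspa5, Calr and P4ha1.

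Genes of ER entry fell by small amounts. All 6 held genes fell; their median change was -0.39 on the log2 scale, and their median fasted mean was 75.7% of the fed mean. Sec61b, a small subunit of the Sec61 protein-conducting channel on chromosome 4 at 47474658 to 47483242 (GRCm38), was 89.9, 102.5 and 95.0 FPKM in the fed mice and 67.4, 56.8 and 63.1 in the fasted mice. Each fasted value lay at least 22.6 FPKM under the lowest fed value. The change was -0.61 ± 0.12 on the log2(FPKM + 1) scale (estimate ± SE, as for each bracketed change that follows; limma adjusted p = 0.00454). Of the entry genes only Sec61b was called under both other scalings.

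The translocon-associated protein complex, which sits beside the channel and helps certain chains through it, was represented by Ssr1, Ssr2 and Ssr3. Ssr2 had the highest level of the entry genes, at 131, 157 and 143 FPKM in fed and 105, 112 and 107 in fasted tissue (-0.41 ± 0.12; limma adjusted p = 0.0137). Ssr3 (-0.39 ± 0.12) and Ssr1 (-0.35 ± 0.12) had log2 fold changes near the median over falls and rises of all tested genes. Rpn1, a subunit of the oligosaccharyltransferase that attaches N-glycans, was 33.5, 28.8 and 30.9 FPKM in fed and 22.3, 23.6 and 24.2 in fasted tissue (-0.39 ± 0.12). Spcs1, of the signal peptidase complex, fell least of the 6 (-0.32 ± 0.12). Its mean FPKM was 86.2 ± 8.09 fed and 68.5 ± 3.56 fasted (± SD of 3 mice). Its exons overlap those of Glt8d1 on the other strand by up to 223 bases. Of the 37 genes, 12 share exon bases with another annotated gene, and whether the counting used strand is not known here, so reads of such pairs may be shared. Ssr3 lost its call when fed replicate 3 was left out. Ssr1 lost it when any of fed replicate 2 and fasted replicates 2 and 3 was left out, and Spcs1 for any library but fed replicate 1.

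Folding genes showed deeper falls. All 10 held genes fell by a median of 0.80 on the log2 scale, and the median fasted mean was 56.0% of the fed mean. Summed over the 10 genes, FPKM was 1107, 1101 and 1227 in the fed mice and 604, 731 and 703 in the fasted mice. With median-ratio scaling 6 of the 10 were called lower, and with quantile normalization 7, beside 26.2% and 38.9% of all tested genes.

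Hspa5 encodes BiP, the HSP70 chaperone of the ER lumen, which binds unfolded chains and holds the stress sensors inactive. It lies on chromosome 2 at 34771970 to 34777547 (GRCm38). Its level was 193, 191 and 191 FPKM in the fed mice and 76.5, 106 and 97.5 in the fasted mice. The 3 fed values were nearly equal, and the lowest of them was 84.9 FPKM above the highest fasted value, with fasted replicate 1 lowest. The log2 fold change was -1.05 ± 0.14 (limma adjusted p = 0.00153), and it ran from -1.14 to -0.91 when single libraries were left out. Hsp90b1, encoding the ER paralogue of HSP90 (GRP94), fell less, from 138, 154 and 165 FPKM to 90.4, 110.2 and 112 (-0.55 ± 0.13). It was called neither with median-ratio scaling (adjusted p = 0.0649) nor with quantile normalization (adjusted p = 0.0575).

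Calr encodes calreticulin, which retains newly made glycoproteins until their glycans have been trimmed. On chromosome 8 at 84841850 to 84846934, it was 322, 271 and 356 FPKM in fed and 137, 185 and 172 in fasted tissue. The groups were separated by 86.1 FPKM (-0.94 ± 0.16; limma adjusted p = 0.0030). Edem1, whose product trims mannose from glycoproteins that fail to fold and so marks them for degradation, had the deepest fall of the 37 genes. On chromosome 6 at 108828641 to 108859356, it was 20.3, 25.0 and 19.7 FPKM in fed and 9.39, 9.14 and 9.96 in fasted tissue (-1.10 ± 0.13; limma adjusted p = 0.00112). The 3 fasted values were close together, 9.74 FPKM or more under every fed value.

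Disulfide isomerases form and reshuffle disulfide bonds, and the 4 held fell to different extents. Pdia6 was 97.4, 107 and 121 FPKM in fed and 60.2, 61.2 and 64.2 in fasted tissue (-0.79 ± 0.12; limma adjusted p = 0.00216). P4hb, which encodes PDI itself and is also the beta subunit of prolyl 4-hydroxylase, was 155, 158 and 157 FPKM in fed and 98.2, 109.9 and 111 in fasted tissue (-0.56 ± 0.11). The glycoprotein-specific isomerase gene Pdia3 went from 128 ± 13.4 to 92.8 ± 5.73 FPKM (-0.46 ± 0.12), and Pdia4 from 41.8 ± 4.59 to 32.1 ± 1.96 (-0.37 ± 0.13). Pdia3 and Pdia4 were called under neither other scaling, and Pdia4 lost its call when any of fed replicates 1 and 3 and fasted replicates 1 and 2 was left out.

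The catalytic alpha subunits of prolyl 4-hydroxylase hydroxylate proline in collagen chains, which stabilises the triple helix. P4ha1 was 11.5, 18.6 and 17.4 FPKM in fed and 7.43, 8.40 and 7.37 in fasted tissue (-0.92 ± 0.19; limma adjusted p = 0.00527). P4ha2 was 9.39, 14.9 and 10.4 FPKM in fed and 6.22, 8.77 and 4.03 in fasted tissue (-0.80 ± 0.27; limma adjusted p = 0.0230). For P4ha2 the groups were 0.62 FPKM apart, and the call was lost with median-ratio scaling. It was also lost when any of fed replicate 2 and fasted replicates 1 and 3 was left out.

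**Figure D3:**
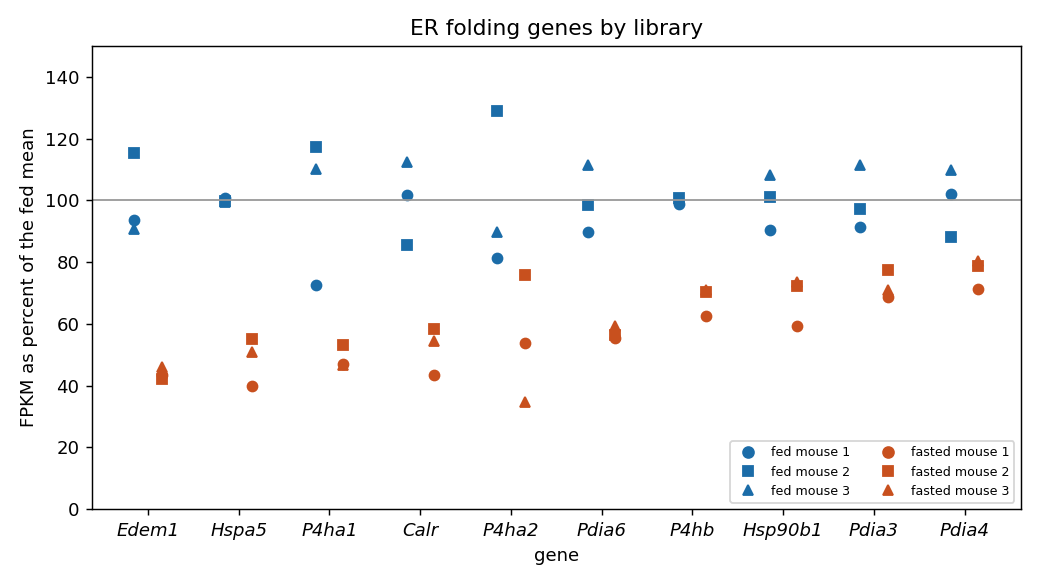
FPKM of the 10 folding genes in each library as a percentage of the gene's mean over the 3 fed mice, in order of the fasted mean, with blue for fed and orange for fasted mice and 1 symbol shape per mouse. Fasted means run from 43.8% of the fed mean for Edem1 to 76.8% for Pdia4, and no fasted value reaches a fed value of the same gene.

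The promoters of the held genes of all steps, and not of the folding genes alone, were searched for short sequence elements. A pair of elements is known to bind factors of the unfolded protein response: the ER stress element (ERSE), which is CCAAT, a gap of 9 bases and CCACG, and the core of the unfolded protein response element, TGACGTGG. Both strands were searched in RefSeq promoter windows (GRCm38.p6, 250 bases before the start of transcription to 50 after it), and 36 of the 37 genes had a window. A match to ERSE was present in 4 of the 36 genes (11.1%), against 37 of 27025 genes with a window (0.137%) and 0.408% of those held. The 4 were Hspa5, Hsp90b1, Calr and Pdia6, all of them folding genes. The element was itself first defined from promoters of ER chaperone genes, among them Hspa5, Hsp90b1 and Calr. Matches in Hspa5, Hsp90b1 and Calr were thus known beforehand, and the contrast in shares is not a test of enrichment. The matching stretches of all 4 genes are given as a description of sequence. The lines run 5′ to 3′ on the gene's strand, with capitals for the CCAAT and CCACG parts or, where the match is on the opposite strand, their complements.
Hspa5, chr2:34772020-34772048, plus strand: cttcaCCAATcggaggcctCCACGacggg
Pdia6, chr12:17266486-17266514, plus strand: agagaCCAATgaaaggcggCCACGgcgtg
Calr, chr8:84847070-84847098, minus strand: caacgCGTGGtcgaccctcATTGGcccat
Hsp90b1 (distal match), chr10:86705633-86705661, minus strand: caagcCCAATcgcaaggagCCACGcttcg
Hsp90b1 (proximal match), chr10:86705528-86705556, minus strand: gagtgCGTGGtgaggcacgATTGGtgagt

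The match begins 65 bases before the RefSeq start in Hspa5, 98 in Pdia6, 162 in Calr, and 212 and 107 in Hsp90b1. In GENCODE the Hspa5 stretch lies within an exon of an earlier-starting transcript, and the other stretches lie in no annotated gene. These 4 genes fell by 0.55 to 1.05 on the log2 scale, and Edem1, which fell more, had no match in its window. A variant of the element with ATTGG, a gap of 1 base and CCACG was found in none (0) of the 36 genes. The TGACGTGG core was present in 5 of the 36 (13.9%; 0.714% of all genes with a window and 1.06% of those held): Copb1, Copb2, Sec23a, Sec24d and Kdelr3, which are coat and cargo receptor genes. As for ERSE, this contrast in shares is not a test of enrichment. Copb1 (-0.34 ± 0.13), Copb2 (-0.35 ± 0.11) and Sec23a (-0.40 ± 0.14) were not called with median-ratio scaling. The matches of the pair with the deepest falls are shown, with the 8 bases of the core or its complement in capitals.
Sec24d, chr3:123267459-123267488, plus strand: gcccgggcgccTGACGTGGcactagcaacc
Kdelr3, chr15:79516367-79516396, plus strand: tggccgccccgCCACGTCAccgcgcggcca
The Sec24d stretch lies in an exon in GENCODE and that of Kdelr3 in no annotated gene. Bases after the RefSeq start were looked for near the beginning of the gene's GENCODE transcripts. They were found for 34 of the 39 windows of these genes, but not for that of Sec24d, so the placing of its window is less certain. A match is a description of the sequence and not evidence of binding.

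Vesicle coat genes fell by less than folding genes in most cases. Of 13 held, 12 fell and Sec31b rose, and their median log2 change was -0.36. The COPII coat, which buds from the ER, had 5 falls and 1 rise (median -0.50), and the COPI coat had 7 falls (median -0.35). With median-ratio scaling 4 coat genes were called lower (Sec24d, Sec13, Sec23b and Copg1), and with quantile normalization 5. The shares of all tested genes were 26.2% and 38.9%.

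Sec24d encodes a COPII subunit that selects cargo. On chromosome 3 at 123267455 to 123365641, it was 24.0, 22.1 and 21.9 FPKM in fed and 10.03, 13.3 and 13.6 in fasted tissue, a fasted mean of 54.3% of the fed mean (-0.84 ± 0.15; limma adjusted p = 0.00311). Its partner in the inner coat, Sec23b, was 17.0, 18.5 and 16.2 FPKM in fed and 11.6, 11.6 and 9.94 in fasted tissue (-0.60 ± 0.13). The other SEC23 gene, Sec23a, went from 10.97 ± 1.59 to 8.05 ± 0.233 FPKM (-0.40 ± 0.14). Its call was lost with median-ratio scaling, and when any of fed replicates 1 and 2 and fasted replicates 2 and 3 was left out. Exons of Sec23a overlap those of Gm17529 on the other strand by up to 431 bases.

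In the outer COPII cage, Sec13 was 53.3, 58.0 and 49.8 FPKM in fed and 29.4, 36.3 and 35.3 in fasted tissue (-0.66 ± 0.13; limma adjusted p = 0.00454). Sec13 protein also belongs to the nuclear pore. The other cage subunit has 2 genes, and they moved in opposite directions. Sec31a was 59.8, 58.9 and 59.6 FPKM in fed and 49.0, 49.0 and 49.7 in fasted tissue (-0.27 ± 0.10; limma adjusted p = 0.0360), a narrow spread in both groups. Without any 1 library, and under both other scalings, Sec31a was not called. Sec31b, on chromosome 19 at 44516957 to 44545864, was 4.51, 3.04 and 3.60 FPKM in fed and 7.44, 5.85 and 5.72 in fasted tissue (0.64 ± 0.17; limma adjusted p = 0.0116). All fasted values of Sec31b were above all fed values, and its level stayed far under that of Sec31a. An annotated gene on the same strand, Gm20538, overlaps exons of Sec31b by up to 91 bases, and reads of the pair may be shared.

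All 7 held COPI genes fell. Copg1, a gamma subunit that binds cargo and the small GTPase ARF1, was 43.2, 46.3 and 39.4 FPKM in fed and 27.0, 30.7 and 29.9 in fasted tissue (-0.54 ± 0.12; limma adjusted p = 0.00647). Copz2, encoding a zeta subunit, had the highest level among the coat genes, with 114, 119 and 123 FPKM in fed and 89.8, 84.3 and 88.1 in fasted tissue (-0.43 ± 0.11). Copb2 (-0.35 ± 0.11), Copb1 (-0.34 ± 0.13), Cope (-0.31 ± 0.11) and Copa (-0.25 ± 0.10) fell least of the COPI genes. Their log2 fold changes were near, or less deep than, the median over falls and rises of all tested genes. Copa had the smallest fall of the 37 genes, from 72.6, 70.4 and 71.7 to 58.9, 61.5 and 59.9 FPKM. Exons of Copg1 overlap those of Gm26636 on the other strand by up to 720 bases. Those of Copa overlap Gm37756 by up to 708 bases and Ncstn by up to 195, both on the other strand.

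Copg2, encoding the other gamma subunit, was 14.0, 14.1 and 13.9 FPKM in fed and 10.1, 10.2 and 11.8 in fasted tissue (-0.36 ± 0.12; limma adjusted p = 0.0241). Its exons overlap those of the imprinted gene Mest on the other strand by up to 912 bases. Mest was 82.1, 89.9 and 43.5 FPKM in fed and 17.5, 5.93 and 17.2 in fasted tissue, a larger fall (-2.39 ± 0.42). The part of Mest reads in the Copg2 value was not tested. Copa lost its call whichever library was left out, Copg2 for any but fasted replicate 3 and Cope for any but fed replicate 3. Copb1 lost it when any of fed replicates 1 and 3 and fasted replicates 1 and 3 was left out. None of Copz2, Copg2, Copb2, Copb1, Cope and Copa was called under either other scaling.

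Among 5 cargo receptor genes 4 fell and 1 rose (median -0.42). KDEL receptors capture ER-resident proteins such as BiP in the Golgi and return them in COPI vesicles. Kdelr3, on chromosome 15 at 79516411 to 79527739, was the 1 held, at 9.28, 5.98 and 5.18 FPKM in fed and 3.70, 3.78 and 2.69 in fasted tissue. The lowest fed value was 1.40 FPKM above the highest fasted value, and fed replicate 1 was the highest (-0.81 ± 0.22; limma adjusted p = 0.0120).

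The p24 proteins, encoded by Tmed genes, cycle between the ER and Golgi and help load cargo such as lipid-anchored proteins. Tmed9 was 62.3, 71.5 and 66.9 FPKM in fed and 49.7, 49.5 and 50.3 in fasted tissue (-0.42 ± 0.11). Tmed1 (-0.46 ± 0.13) and Tmed3 (-0.28 ± 0.11) fell as well. None of these 3 was called with median-ratio scaling, and Tmed1 was called with quantile normalization. Tmed1 was also lost without fasted replicate 2, and Tmed3 without any 1 library except fed replicate 1. Exons of Tmed1 overlap those of Dnm2 on the other strand by up to 207 bases.

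Tmed5 went the other way. On chromosome 5 at 108106366 to 108132620, it was 34.2, 34.8 and 35.9 FPKM in fed and 57.1, 74.4 and 45.2 in fasted tissue. The fed values were nearly equal, and the fasted values were all higher but spread widely, with a coefficient of variation of 24.9% against 2.47% in fed mice. The log2 fold change was 0.71 ± 0.18 (limma adjusted p = 0.00945), and it was 0.53 to 0.88 when single libraries were left out. Exons of Tmed5 overlap those of Mtf2 on the other strand by up to 395 bases, and Mtf2 was not analysed here.

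The Sec22 genes encode membrane proteins related to the SNARE of ER-Golgi transport, which drives vesicle fusion and is the product of Sec22b. Sec22b was 27.5, 38.6 and 31.3 FPKM in fed and 21.3, 22.7 and 19.3 in fasted tissue (-0.59 ± 0.15; limma adjusted p = 0.00988). Sec22a went from 14.1 ± 0.923 to 10.9 ± 0.790 FPKM (-0.34 ± 0.12), and Sec22c from 2.83 ± 0.336 to 1.95 ± 0.176 (-0.38 ± 0.15). Neither was called with median-ratio scaling, and each was lost when any of 5 single libraries was left out.

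Ratios of a pair of genes within the same library do not change when a library is multiplied by 1 factor, as in median-ratio scaling, but they do change with quantile normalization. They are given here from the values as deposited. The pairs were chosen after their values were seen, so no test is given. The ratio of Sec31b to Sec31a was 0.0755, 0.0516 and 0.0604 in the fed mice and 0.152, 0.119 and 0.115 in the fasted mice. The ratio of Tmed5 to Tmed9 was 0.549, 0.487 and 0.537 in fed and 1.15, 1.502 and 0.898 in fasted mice. For both pairs all fasted ratios were above all fed ratios.

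Within folding, Hspa5 was 1.40, 1.24 and 1.16 times the level of Hsp90b1 in fed and 0.846, 0.963 and 0.871 times in fasted mice, so the order of this chaperone pair turned over. The ratio of Calr to Pdia3 was 2.47 ± 0.290 in fed and 1.77 ± 0.185 in fasted mice, each given as the mean ± SD of 3 mice. The ratio of Sec24d to Sec31a was 0.402, 0.376 and 0.367 in fed and 0.205, 0.271 and 0.274 in fasted mice. In none of these 3 pairs did the groups overlap. By contrast the ratios of P4ha1 to P4hb (0.101 ± 0.0234 and 0.0728 ± 0.00565), Copg2 to Copg1 (0.327 ± 0.0247 and 0.367 ± 0.0316) and Sec23b to Sec23a (1.58 ± 0.126 and 1.37 ± 0.115) overlapped between fed and fasted mice.

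**Figure D4:**
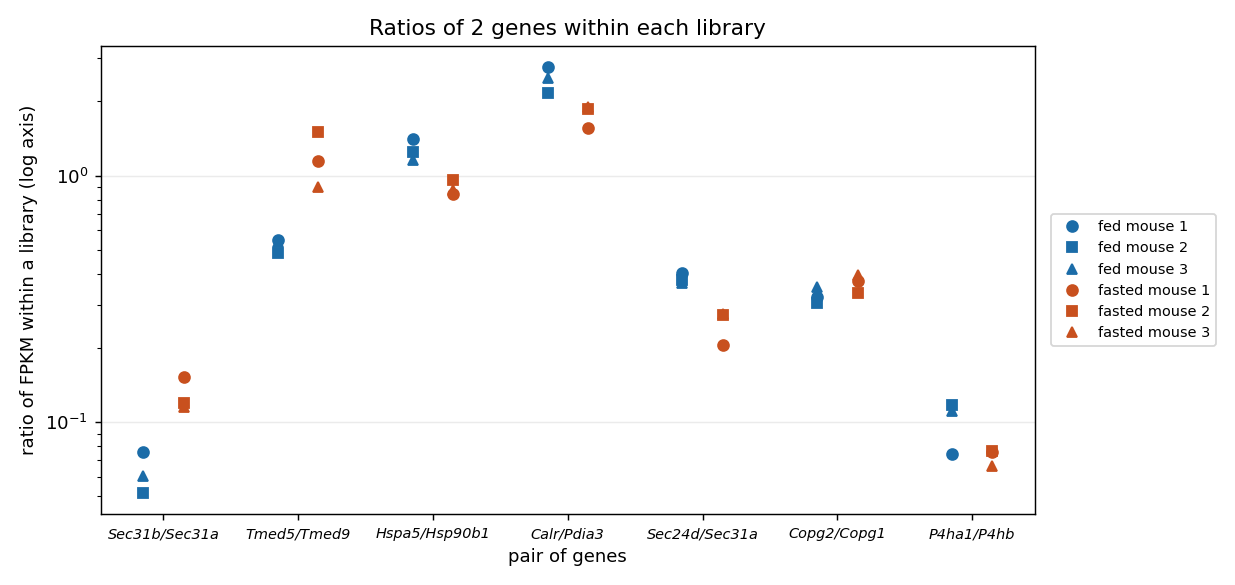
Ratio of the FPKM of a pair of genes within a library (log axis) for 7 pairs, with blue for fed and orange for fasted mice and 1 symbol shape per mouse. The ratios of Sec31b to Sec31a and of Tmed5 to Tmed9 are higher in all fasted mice, those of Hspa5 to Hsp90b1, Calr to Pdia3 and Sec24d to Sec31a are lower, and the last 2 pairs overlap.

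The libraries of a group were not the highest or lowest equally often. Among the 35 genes that fell, fed replicate 2 was the highest fed library in 19 and fed replicate 1 in 9. Fed replicate 1 was the lowest fed library in 18. Fasted replicate 1 was the lowest fasted library in 19 of the 35 and each of the other fasted replicates in 8. Entry genes summed to 446, 514 and 477 FPKM in the fed and 357, 359.7 and 350.4 in the fasted mice. Coat genes, with Sec31b, summed to 596, 601 and 578 FPKM in the fed and 435, 455 and 454 in the fasted mice. The groups were apart for both sums. Cargo receptor genes, with Tmed5, summed to 181, 196 and 190.0 FPKM in the fed and 176, 191 and 161 in the fasted mice, and these groups overlapped.

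Other genes of the pathway were read from lists, each of them held in part. Their counts stand beside the 49.4% of all tested genes called lower and the 41.1% called higher, and with few genes held in a list nothing is read from them about the list. Of 45 listed ER chaperones and oxidation enzymes outside the rule, 16 were held and all 16 fell, by a median of 0.53 on the log2 scale. Fkbp14, a prolyl isomerase of the ER (-0.996 ± 0.13), Manf, a secreted ER stress protein (-0.94 ± 0.14), the calcium-binding protein gene Calu (-0.61 ± 0.12) and Hyou1, a nucleotide exchange factor for BiP (-0.60 ± 0.12), had the smallest p. Manf was 67.6, 76.7 and 71.6 FPKM in fed and 40.3, 40.8 and 30.9 in fasted tissue. Falls numbered 8 with median-ratio scaling, 9 with quantile normalization and 10 without fasted replicate 2.

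Of 33 genes of targeting and other insertion, 6 were held: 5 fell and Bag6 (-0.22 ± 0.11) was not called. Emc9, of the ER membrane complex (-1.20 ± 0.18), Srp54b (-0.94 ± 0.27), Nomo1 (-0.64 ± 0.20) and Emc10 (-0.45 ± 0.14) fell. Srp54b, a signal recognition particle gene, has near-identical copies and is uncertain. Under either other scaling 2 of the falls passed. Leaving out fed replicate 2 or fasted replicate 1 also left 2, and leaving out fed replicate 3 or fasted replicate 2 left 3.

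In N-glycan assembly and trimming 15 of 44 genes were held, of which 11 fell, 2 rose and 2 were not called (median -0.39). Magt1, an oligosaccharyltransferase subunit gene (-0.69 ± 0.12), and Dolk, the dolichol kinase gene (-0.60 ± 0.14), fell. Dpm1, the catalytic subunit of dolichol-phosphate mannose synthase, rose from 27.8, 28.1 and 32.3 FPKM to 50.6, 51.5 and 51.9 (0.79 ± 0.11; limma adjusted p = 0.00186). Gnpnat1, of hexosamine synthesis, also rose (0.87 ± 0.18). Tusc3 (-0.31 ± 0.13) and Dpagt1 (-0.21 ± 0.11) were not called. Falls numbered 3 with median-ratio scaling, 5 with quantile normalization, 6 without fed replicate 2 and 7 without fasted replicate 2.

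Collagen-modifying ER enzymes and chaperones had 6 of 13 genes held. Serpinh1, the collagen chaperone HSP47, was 208, 553 and 277 FPKM in fed and 70.0, 65.2 and 59.8 in fasted tissue (-2.27 ± 0.32; limma adjusted p = 0.00169), and -1.87 without fed replicate 2. Plod3, a lysyl hydroxylase gene (-0.92 ± 0.19), Crtap (-0.56 ± 0.13) and P3h1 (-0.54 ± 0.16), partners in prolyl 3-hydroxylation, fell. P3h3 rose (0.62 ± 0.13), and Plod1 (-0.31 ± 0.13) was not called. With median-ratio scaling 3 falls passed.

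ER-associated degradation, which returns misfolded proteins to the cytosol for the proteasome, had 9 of 33 genes held, with 3 rises, 4 falls and 2 not called, shares near those over all tested genes. Derl3, encoding a derlin of the retrotranslocation channel, was 1.07, 1.31 and 1.07 FPKM in fed and 4.09, 3.41 and 4.53 in fasted tissue (1.22 ± 0.16; limma adjusted p = 0.00136). Derl3 also stood on the list of 12 plasma and B cell markers, of which no other was held. The ubiquitin ligase genes March6 (0.71 ± 0.12) and Rnf185 (0.98 ± 0.17) rose, and Erlin2 (-0.62 ± 0.15), Rnf5 (-0.39 ± 0.14), Erlec1 (-0.33 ± 0.12) and Ube2g2 (-0.26 ± 0.11) fell. Insig1 (-0.72 ± 0.37) and Erlin1 (-0.29 ± 0.15) were not called. The 3 rises held under both other scalings, where 1 fall passed. Leaving out fed replicate 1 or any 1 fasted library left 2 falls, and leaving out fed replicate 2 left 1.

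Of 28 listed regulators and effectors of the unfolded protein response 10 were held, of which 6 rose and 4 fell (median 0.69). The list leaves out ER chaperone genes such as Hspa5 and Manf, which fell, so its median does not describe that response as a whole. Trib3, a pseudokinase gene (2.0 ± 0.20), Chac1, a glutathione-degrading enzyme gene (1.45 ± 0.29), Sesn2 (1.08 ± 0.26), Ppp1r15a (1.04 ± 0.20) and Ppp1r15b (0.79 ± 0.20) rose. The last 2 encode targeting subunits of the phosphatase that reverses eIF2 alpha phosphorylation. Nfyb, a subunit of the CCAAT-binding factor, rose from 6.74 ± 0.276 to 10.7 ± 0.240 FPKM (0.60 ± 0.12).

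Creb3l1, encoding an ER-anchored transcription factor related to ATF6, was 40.5, 28.7 and 30.1 FPKM in fed and 9.62, 9.76 and 8.67 in fasted tissue (-1.71 ± 0.16; limma adjusted p = 0.000476). It was the deepest fall of that list and held under both other scalings. Nfe2l1 (-0.46 ± 0.14), Atf6b (-0.40 ± 0.13) and Tmbim6 (-0.31 ± 0.13) fell, but under either other scaling, and without fasted replicate 1, 1 of the 4 falls passed. Without fed replicate 3, 2 passed.

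Of 71 listed ER-Golgi regulators, tethers and SNAREs, 27 were held: 21 fell, 1 rose and 5 were not called (median -0.40). Ergic1, of the ER-Golgi intermediate compartment (-1.09 ± 0.19), the small GTPase gene Rab1b (-0.75 ± 0.14) and the SNARE gene Ykt6 (-0.61 ± 0.12) fell. Use1, encoding a SNARE of Golgi-to-ER return, rose from 61.8, 62.7 and 59.8 FPKM to 93.7, 93.4 and 85.3 (0.55 ± 0.11; limma adjusted p = 0.0043). The 5 not called were Trappc13, Ergic3, Arf3, Cnih1 and Arf1, with log2 fold changes of -0.33 to -0.20. Falls numbered 8 with median-ratio scaling and 9 with quantile normalization.

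**Figure D5:**
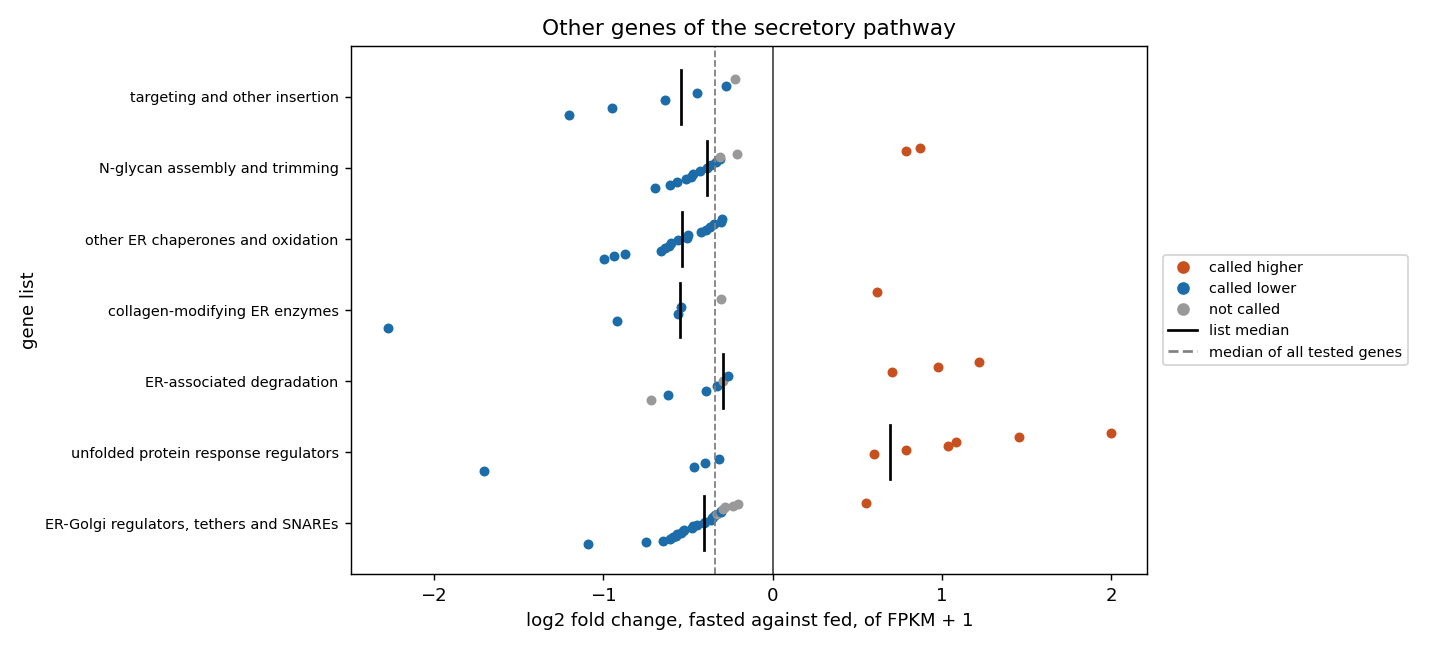
Log2 fold change of FPKM + 1, fasted against fed, of each held gene in 7 lists of the pathway outside the rule (1 point per gene, blue called lower, orange called higher, grey not called), with a black bar for the list median and a dashed line for the median of all tested genes. The list of unfolded protein response regulators and effectors, which leaves out ER chaperone genes, has its median at 0.69. The other 6 lists have theirs below 0.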

How the data were processed

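The deposited files give FPKM values, per the file headers, for 1 library per mouse and carry no more than 2 decimals. RSEM and the builds mm10 and GRCm38.p6 are named in the submitters' processing notes. The RSEM version, the aligner, strand use and the way the 3162 genes were chosen were not given in the sources used here. Annotation by GENCODE release M21 (GRCm38) covered 3158 of these genes. Counts and depth are unknown, so no counting interval is given.

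Each deposited FPKM value was turned into log2(FPKM + 1), the pseudocount being 1. The 3 fasted mice were compared with the 3 fed mice by limma 3.58.1 in R 4.3.3 (eBayes with a trend) over the 2999 genes whose mean reached 1 FPKM. Two-sided p-values were Benjamini-Hochberg adjusted over these genes, with a threshold of 0.05. On this scale the change of genes with low values is understated. The fit was tested on simulated data. Alternatives were a pseudocount of 0.1, no filter, median-ratio scaling, quantile normalization, eBayes without the trend, 2 stricter adjustments and leaving out each library. The genes described and the lists were chosen with earlier results of these data known. All genes of the rule are accounted for. From each list up to 4 genes with the smallest p were named, with those against the list's majority; other genes named from lists were chosen after their values were seen. Promoter sequences are those of RefSeq (GRCm38.p6), matched by symbol.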

Additional observations from a re-analysis of the deposited data

How the results depend on the processing

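The 35 falls and 2 rises among the genes described were the same with a pseudocount of 0.1 FPKM and with no filter, and 34 falls and 2 rises passed without the trend. Falls numbered 13 with median-ratio scaling and 17 with quantile normalization, 11 and 3 when untested protein-coding or all annotated genes were given the largest possible p, and 23 to 26 when single libraries were left out. The lowest count, 23, was without fasted replicate 2. Rises numbered 2 in every scaling and without any 1 library, and 0 in both stricter adjustments (limma; both had an unadjusted p under 0.05). Over all tested genes, 1232 rose and 1482 fell. Falls numbered 787 with median-ratio scaling. With the stricter adjustments 557 rose and 495 fell over protein-coding genes, and 172 rose and 192 fell over all annotated genes. Without single libraries 1118 to 1221 rose and 1040 to 1300 fell. The cause of the drop under the scalings was not tested; that under the stricter adjustments follows from the number of genes adjusted for. No paired analysis was possible because the replicate numbers used here follow the order of deposition and only name the mice, and the labels share no number between the groups. Depth is unknown, so what it limits cannot be stated.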

Other observations

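ERSE matches were also present in the promoters of 6 held genes outside the pathway rule, of which 5 were tested. Of these 5, Creld2, an ER chaperone gene, fell (-0.42 ± 0.15), and Derl3 (1.22 ± 0.16), the carboxylase gene Acacb (1.27 ± 0.33), Pan2 (0.87 ± 0.22) and Adcy3 (0.57 ± 0.13) rose. The TGACGTGG core was found in 21 further held genes, and of the 20 tested 12 fell, 5 rose and 3 were not called (limma), beside 49.4% lower and 41.1% higher over all tested genes. They included Txndc5, an ER disulfide isomerase gene (-0.56 ± 0.13), Gbf1, an exchange factor for the GTPase of COPI coats (-0.54 ± 0.13), and Scfd1, a regulator of ER-Golgi fusion (-0.47 ± 0.13), which fell, and Ppargc1a (0.90 ± 0.24), which rose. These genes were named after their values were seen.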
